A study of Homo sapiens with 688 samples.

Results

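The wells described here are those in which U87 glioblastoma cells received an inhibitor of MET, ALK, the VEGF receptors or ABL. They were chosen by name: every well of the U87 screen whose drug label holds crizotinib, cabozantinib, ceritinib, sunitinib, sorafenib, regorafenib, pazopanib, axitinib, ponatinib, dasatinib, bosutinib, imatinib or nilotinib. The rule gave 13 compounds in 26 wells out of 688 samples in the series. It also named foretinib, tivantinib, linifanib, cediranib and saracatinib, for which no well with that label was found. No measured value entered the choice.

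All of these wells lie on plates A and B of the first U87 compound set, with 1 well per compound and plate. The screen used PLATE-Seq, in which the poly(A) RNA of each well is reverse transcribed with a well-specific barcode, the wells of a plate are pooled, and the 3′ ends of the transcripts are sequenced. Per the labels, cells were treated for 24 h at a dose that left 80% of cells viable at 48 h. Each plate also held 2 wells with the solvent DMSO, 2 untreated wells and 79 other compounds, and the labels name no genetic change in any of them. The other compounds include lenvatinib, alectinib and vandetanib, inhibitors of the same kinases that the rule does not name. Lysates from quadrants 1 and 3 of a 384-well culture plate were combined into each well of the capture plate.

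The MET and ALK inhibitors were crizotinib at 0.181 µM, ceritinib at 0.745 µM and cabozantinib at 1.1 µM. The VEGF receptor inhibitors were sunitinib at 0.049 µM, sorafenib at 4.9 µM, regorafenib at 5.2 µM, pazopanib at 8.6 µM and axitinib at 0.144 µM. The ABL inhibitors were imatinib at 5.5 µM, nilotinib at 2.29 µM, ponatinib at 0.137 µM, dasatinib at 0.345 µM and bosutinib at 0.377 µM. Of the 78 pairs of compounds 0 shared a dose, so the responses of compounds are given side by side and no compound was tested against another.

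These compounds block the ATP site of tyrosine kinases and each reaches several of them. Receptor tyrosine kinases such as MET and the VEGF receptors bind growth factors outside the cell and pass the signal through RAS, RAF, MEK and ERK, which switches on transcription of its own inhibitors, among them the ERK phosphatase DUSP6. Sorafenib and regorafenib also bind RAF kinases, and regorafenib is sorafenib with a fluorine added on the central phenyl ring. ABL is a cytoplasmic tyrosine kinase whose fusion form drives chronic myeloid leukemia. Imatinib and nilotinib share a scaffold, while dasatinib and bosutinib also block SRC kinases. Glioblastoma cells secrete VEGF and depend on endothelial cells for their blood supply, which a culture of U87 cells alone does not contain.

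Some features of the plates bear on every value below. Library totals in the 26 wells ran from 399737 to 1128215 counts, and in the 4 DMSO wells from 445250 to 588082. The plate itself changed 4839 of 8501 tested genes (56.9%), so each fold change was fitted with the plate as a term. The 4 untreated wells, which held no drug, differed from the 4 DMSO wells in 115 genes (1.35% of those tested), of which 70 were higher and 45 lower. Values of a gene also followed the well number, which fixes the barcode: over 4245 genes, the median correlation between a well of plate A and the same well number on a plate of untreated LNCaP prostate cells was 0.23, against -0.000944 for the next number. With the second U87 set, in which the same numbers held other compounds, it was 0.273, against 0.00378 for the next number. A compound had the same well number on both plates, so within these plates the compound and the well number cannot be told apart. The correlations are across genes within wells, and genes are not independent replicates. The well number was taken into account by a fit that takes the well number from the LNCaP plate, called the well-number fit below. That fit has no reading for genes that LNCaP cells barely express, and for these the value at the same number in the second U87 set is given. All differences at the same well number are on the log2 scale, as that number minus the DMSO numbers.

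The cells carried the mesenchymal genes of U87 in every well. Summed over the 14 glioma and astrocyte markers, the level was 23030 to 35810 CPM (counts scaled to the library total) in the 26 wells and 28950 to 30830 CPM in DMSO, carried by VIM, CD44, TIMP1, LGALS1 and S100A6. The defining astrocyte and glioma genes GFAP, OLIG2 and AQP4 were at 0 in all 4 DMSO wells. The 14 epithelial and prostate markers summed to 45.05 to 200.6 CPM, against 69.62 to 170.5 CPM in DMSO.

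The number of genes that differed from DMSO was largest for pazopanib and smallest for axitinib. Pazopanib differed in 182 genes (2.14% of those tested, 75 higher and 107 lower), regorafenib in 151 (1.78%, 52 higher and 99 lower) and sorafenib in 121 (1.42%, 48 higher and 73 lower). Sunitinib differed in 94 genes (1.11%) and axitinib in 27 (0.318%). Among the MET and ALK inhibitors, cabozantinib differed in 118 (1.39%), crizotinib in 84 (0.988%) and ceritinib in 74 (0.87%). Among the ABL inhibitors, imatinib differed in 120 (1.41%), dasatinib in 117 (1.38%), ponatinib in 90 (1.06%), nilotinib in 84 (0.988%) and bosutinib in 38 (0.447%). A gene was counted at an adjusted p under 0.05 by edgeR's quasi-likelihood test, 2 wells against 4, with the Benjamini-Hochberg adjustment over all 8501 genes. With 1 of the 2 wells of a compound left out, the counts for single compounds fell to between 0 and 38, and with the plate left out of the fit to between 0 and 6. The untreated wells lie inside the range of the compounds, and all 13 comparisons use the same 4 DMSO wells. Labels do not say whether the wells of a compound came from separate cultures, so the p-values measure the spread between wells, which may be technical. Values after ± are standard errors of a log2 fold change, and counts of the 79 other compounds take both plates together.

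**Figure D1:**
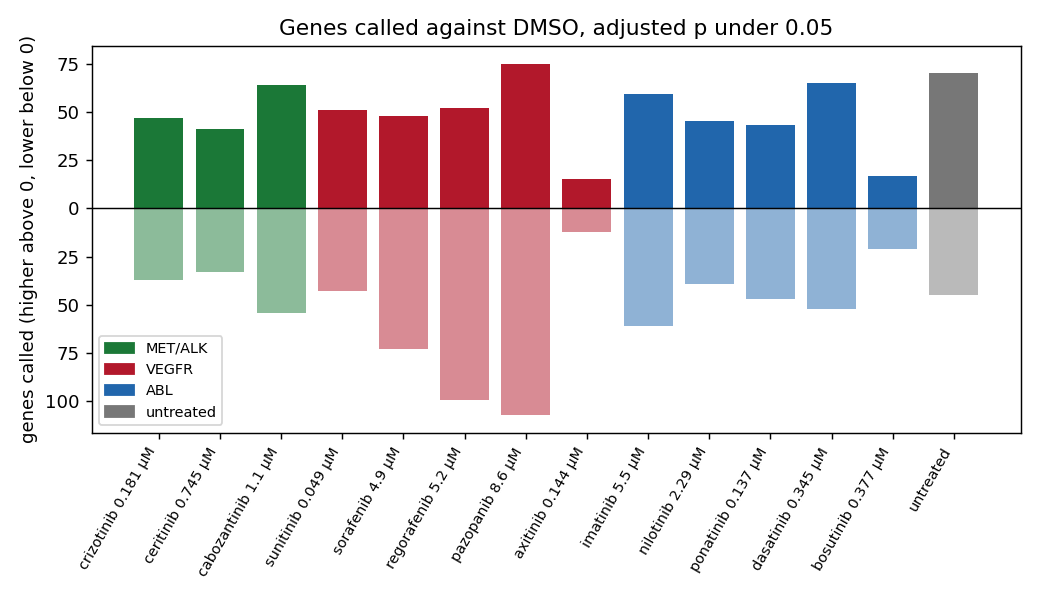
Genes that differed from DMSO at an adjusted p under 0.05 (edgeR), by compound and dose. Bars above 0 count genes that were higher and paler bars below 0 genes that were lower. Colors mark MET/ALK, VEGFR and ABL inhibitors, and gray the untreated wells with 115 genes; pazopanib has the most with 182 and axitinib the fewest with 27.

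When the well number was also fitted, few of these genes still passed in the same direction. Pazopanib kept 9 genes, sorafenib 6, regorafenib 5 and nilotinib 1 (TXNIP). The other 9 compounds and the untreated wells kept 0. For genes that average under 20 CPM in LNCaP the fit corrects little or nothing, so passing it says nothing of the well number. The kept genes above that level were TXNIP and PSAT1 with sorafenib, PSAT1, ASNS, GDF15 and SHISA5 with pazopanib, TXNIP with nilotinib and 0 with regorafenib. The genes described below were in part singled out after their values had been seen.

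With sorafenib, TXNIP, IL1B, MMP1, SERPINB2 and CYP1B1 were lower and PSAT1 was higher. TXNIP (chr1:145438490-145442635 on hg19), which encodes the thioredoxin-interacting protein that restrains glucose uptake, was at 99.85 and 144.5 CPM on plates A and B. In the DMSO wells it was at 402 and 408.3 CPM on plate A and 664.9 and 612.4 CPM on plate B, so the groups did not overlap. The log2 fold change was -2.09 ± 0.18, edgeR adjusted p = 3.40e-17, a 4.27-fold lower level. It stayed at -1.83 in the well-number fit (limma adjusted p = 0.00314). The difference at the same number was -0.23 in LNCaP and -1.62 in the second U87 set, under another compound. Of the 79 other compounds, 2 had a lower TXNIP level.

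IL1B (chr2:113587328-113594393), the gene of the inflammatory cytokine interleukin-1 beta, was at 2563 and 2817 CPM on plate A and 3831 and 3934 CPM on plate B in DMSO. It was at 958.1 and 1802 CPM with sorafenib, a log2 fold change of -1.28 ± 0.12, edgeR adjusted p = 6.95e-16. With regorafenib it was at 717.7 and 1303 CPM, a log2 fold change of -1.73 ± 0.12, edgeR adjusted p = 1.30e-22, and 1 other compound lay lower. All wells of both compounds lay below the 4 DMSO wells. At the same well numbers of the second U87 set IL1B was higher than at the DMSO numbers, with log2 differences of 0.62 and 0.40, and LNCaP cells hardly express it. Ponatinib (-0.81 ± 0.11), axitinib (-0.61 ± 0.11), cabozantinib (-0.53 ± 0.11) and pazopanib (-0.40 ± 0.11) also had lower IL1B by edgeR, while the untreated wells, at 2965, 2344, 4059 and 3652 CPM, overlapped DMSO.

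MMP1 was lower with regorafenib, sorafenib and ponatinib. MMP1 (chr11:102660132-102668891), the interstitial collagenase, was at 16.58 and 15 CPM with regorafenib, at 12.75 and 40.71 CPM with sorafenib and at 16.6 and 39.85 CPM with ponatinib. In DMSO it was at 67.38 and 76.31 CPM on plate A and 93.52 and 116.6 CPM on plate B. The log2 fold changes were -2.50 ± 0.40, edgeR adjusted p = 2.88e-06 for regorafenib, -1.75 ± 0.35, edgeR adjusted p = 7.49e-04 for sorafenib and -1.56 ± 0.31, edgeR adjusted p = 7.20e-04 for ponatinib. The second U87 set gave a difference of 0.27 at the well number of regorafenib and 0.05 at that of sorafenib, but -2.32 at that of ponatinib. Without the plate B well of regorafenib the MMP1 change was -2.16 and was not called.

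SERPINB2, which encodes plasminogen activator inhibitor 2, fell with 6 of the 13 compounds. It was at 33.99 and 140.5 CPM with sorafenib, 42.64 and 129.3 CPM with regorafenib and 40.99 and 168.6 CPM with pazopanib, against 199.9 and 181.5 CPM on plate A and 335 and 386.3 CPM on plate B in DMSO. The log2 fold changes were -1.71 ± 0.24, -1.69 ± 0.24 and -1.43 ± 0.23, with -1.29 ± 0.23 for dasatinib, -0.98 ± 0.21 for ponatinib and -0.90 ± 0.22 for axitinib. With imatinib SERPINB2 was higher, at 353.4 and 678.3 CPM (1.05 ± 0.18). It was also higher in the untreated wells, at 397.5, 246.6, 564.8 and 438.3 CPM (0.68 ± 0.16). At the numbers of sorafenib, regorafenib and pazopanib the second U87 set differed by 1.31, 0.48 and 0.72.

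CYP1B1, a cytochrome P450 induced through the aryl hydrocarbon receptor, was at 59.48 and 144.5 CPM with sorafenib and 125.5 and 165 CPM with regorafenib, against 242.6 and 189.7 CPM on plate A and 379.2 and 396.7 CPM on plate B in DMSO. The log2 fold changes were -1.60 ± 0.20, edgeR adjusted p = 5.57e-09 and -1.04 ± 0.19, edgeR adjusted p = 1.53e-04. It moved the other way with cabozantinib, where it was at 285 and 653.5 CPM (0.63 ± 0.17). Nilotinib (-0.65 ± 0.18) and ponatinib (-0.68 ± 0.17) had lower CYP1B1. C10orf10, a gene induced in starved cells, was at 4.249 and 22.39 CPM with sorafenib against 35.93 and 49.5 CPM on plate A and 88.42 and 64.38 CPM on plate B in DMSO (-2.24 ± 0.48, edgeR adjusted p = 0.00179). At the same well number of the second U87 set C10orf10 was lower by 4.05 on the log2 scale under another compound.

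TFPI2, IGFBP1 and G0S2 were also lower with regorafenib. TFPI2, an inhibitor of serine proteases, was at 2390 and 2737 CPM against 6446 and 7794 CPM on plate A and 6412 and 6939 CPM on plate B in DMSO (-1.43 ± 0.19, edgeR adjusted p = 1.32e-04). IGFBP1, which binds insulin-like growth factors, was at 14.21 and 11.25 CPM against 51.66 and 57.75 CPM on plate A and 90.12 and 80.03 CPM on plate B (-2.47 ± 0.41, edgeR adjusted p = 9.97e-06). G0S2, an inhibitor of triglyceride lipase, was at 239.2 and 238.1 CPM against 738.9 and 627 CPM on plate A and 663.2 and 709.9 CPM on plate B (-1.53 ± 0.16, edgeR adjusted p = 3.16e-12). In all 3 genes both regorafenib wells lay below every DMSO well. At this well number in the second U87 set the differences were 0.22 for TFPI2, 0.21 for G0S2 and -0.84 for IGFBP1. G0S2 was lower by edgeR with 6 further compounds, among them nilotinib (-1.17 ± 0.15), sorafenib (-1.09 ± 0.16) and ponatinib (-0.86 ± 0.15).

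**Figure D2:**
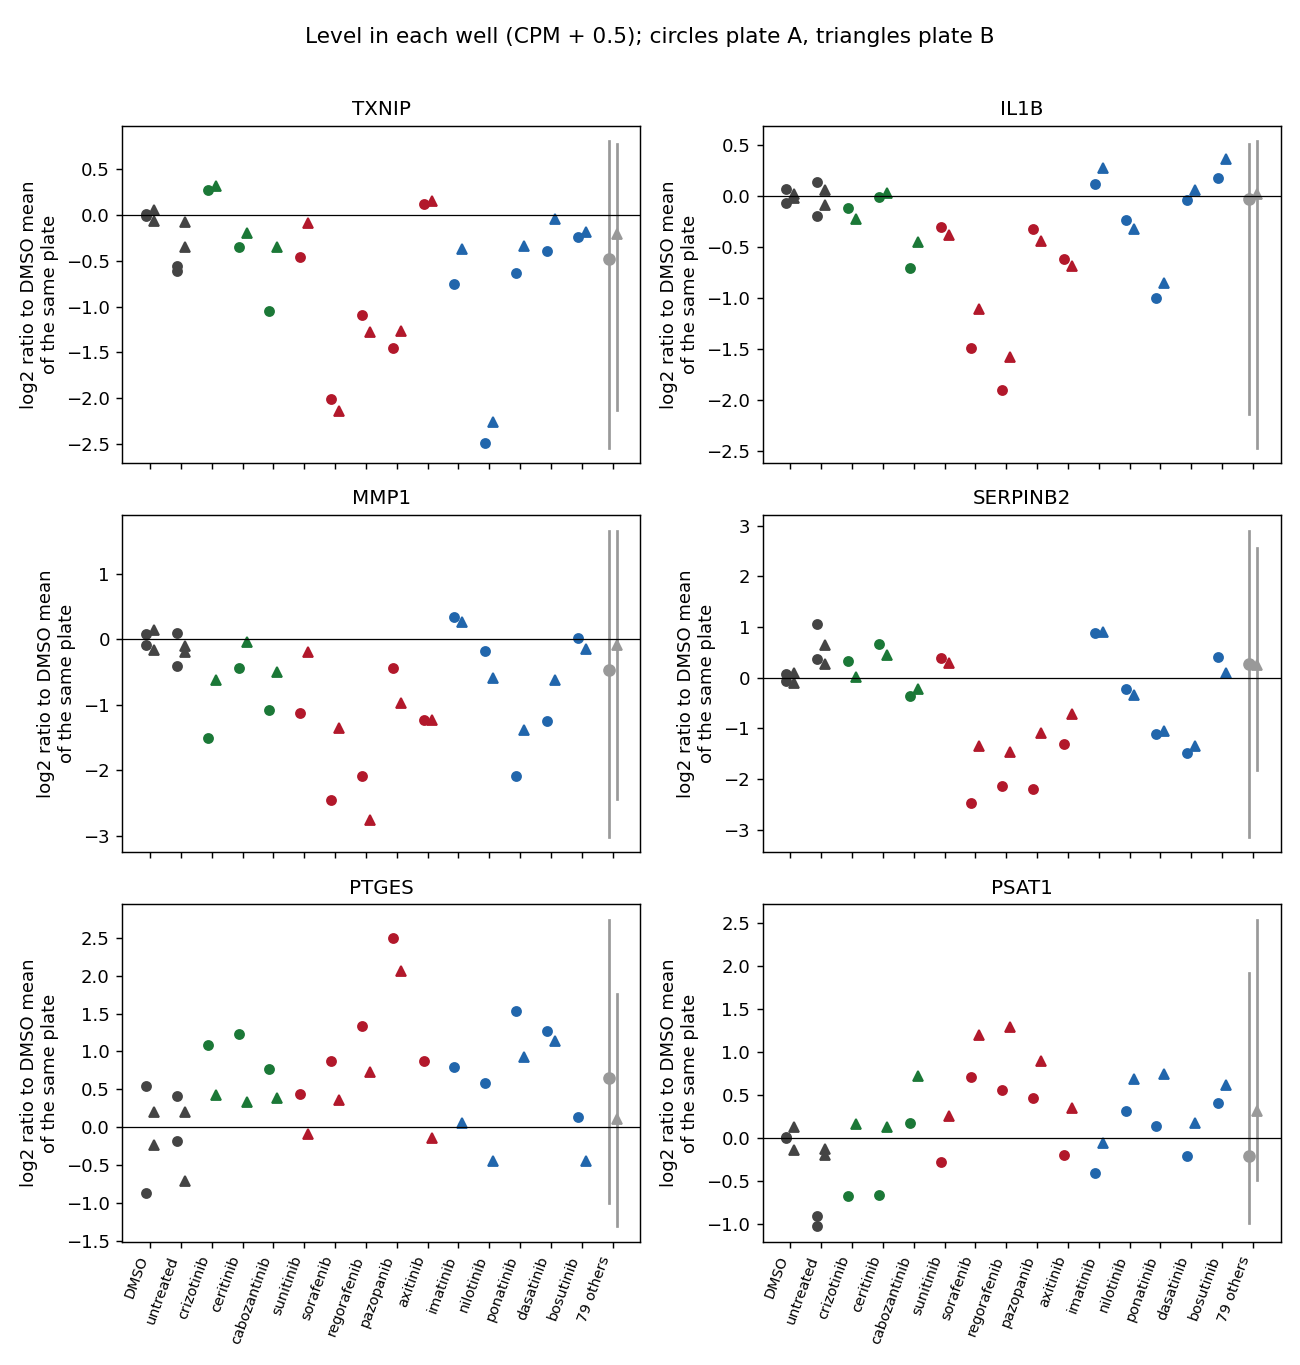
Level of 6 genes in every DMSO, untreated and inhibitor well as the log2 ratio of CPM + 0.5 to the mean of the DMSO wells of the same plate. Circles are plate A and triangles plate B, colors mark MET/ALK (green), VEGFR (red) and ABL (blue) inhibitors, and gray lines span the 79 other compounds with the median marked. Of the inhibitors, nilotinib and then sorafenib are lowest for TXNIP, regorafenib is lowest for IL1B and pazopanib highest for PTGES on both plates.

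Some genes that ERK signaling switches on were lower with sorafenib and regorafenib. Of 21 tested genes of a list of ERK feedback and ETS factor targets, 7 were lower with regorafenib and 0 higher, against 1.16% lower among all genes, and the median log2 fold change of the list was -0.694 against -0.00285 over all genes. With sorafenib 5 were lower and 0 higher, against 0.859% lower among all genes, with a median of -0.377. With pazopanib 3 were lower (1.26% of all genes), with ponatinib 2 (0.553%), and with cabozantinib and nilotinib 1 each (0.635% and 0.459%). Axitinib, bosutinib and crizotinib had 0 called either way. Sunitinib (0.6% higher among all genes) and ceritinib (0.482%) had 1 higher (CCND1). Dasatinib (0.765%) had 1 higher (IL8), and imatinib (0.694%) had 2 higher (IL8 and LIF). In the untreated wells 2 genes of the list, DUSP6 and IL8, were higher than in DMSO, against 0.823% higher among all genes. In the 13 compounds 0 genes of this list passed both the DMSO test and the well-number fit, and LNCaP cells barely express DUSP6.

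DUSP6, the phosphatase that switches off ERK, was at 42.64 and 73.11 CPM with regorafenib and 70.11 and 87.53 CPM with sorafenib. In DMSO it was at 114.5 and 154.7 CPM on plate A and 304.4 and 306.2 CPM on plate B and in untreated wells at 144.4, 285.2, 323.4 and 470 CPM. The log2 fold changes were -1.91 ± 0.26, edgeR adjusted p = 3.36e-08 and -1.43 ± 0.24, edgeR adjusted p = 2.24e-05, with -0.77 ± 0.22 for pazopanib and -0.75 ± 0.21 for ponatinib. At the well numbers of regorafenib and sorafenib the second U87 set differed by -0.07 and -0.26. DUSP5, a nuclear ERK phosphatase, fell with regorafenib alone among the 13 (-1.67 ± 0.43), and whether the other compounds differ from it was not tested. IER3, an early response gene, fell with regorafenib (-0.97 ± 0.22), sorafenib (-0.95 ± 0.22) and pazopanib (-0.84 ± 0.22). The cytokine gene LIF fell with sorafenib (-1.01 ± 0.15), regorafenib (-0.91 ± 0.15), cabozantinib (-0.80 ± 0.15) and pazopanib (-0.49 ± 0.15). EREG, which encodes the EGF receptor ligand epiregulin, was at 54.48 and 195 CPM with regorafenib and 76.48 and 205.6 CPM with sorafenib, against 186.4 and 198 CPM on plate A and 386 and 668.1 CPM on plate B in DMSO (-1.52 ± 0.23 and -1.34 ± 0.23).

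Some genes of the hypoxia response and glycolysis were lower with cabozantinib, sorafenib and regorafenib. Of the hypoxia and glycolysis genes called with these compounds, 0 also passed the well-number fit. Of 27 tested genes, cabozantinib had 6 lower (SLC2A3, ANGPTL4, ENO2, LDHA, NDRG1 and VEGFA) and 0 higher, against 0.635% lower among all genes, with a list median of -0.389. Sorafenib had 5 lower (0.859% of all genes) and 0 higher, with a median of -0.396. Regorafenib had 5 lower (1.16% of all genes) and 2 higher (0.612%), the glycolytic enzymes ENO1 (0.50 ± 0.11) and LDHA (0.48 ± 0.11), with a median of -0.0187. The medians over all genes were -0.0228, -0.00766 and -0.00285 for these 3 compounds. A list median below 0 was not particular to them. With the other compounds it ran from -0.330 (nilotinib) to -0.0271 (dasatinib), except for crizotinib at 0.0355. In the untreated wells it was -0.0599. Nilotinib had 3 lower (0.459% of all genes) and pazopanib 2 (1.26%). Crizotinib (0.435%), sunitinib (0.506%), ponatinib (0.553%), dasatinib (0.612%) and bosutinib (0.247%) had 1 lower each, and imatinib had GAPDH higher (0.694%). In the untreated wells ANGPTL4 was lower (-0.91 ± 0.23), against 0.529% lower among all genes.

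The glucose transporter SLC2A3 was at 20.2 and 23.34 CPM with cabozantinib and 14.21 and 28.12 CPM with regorafenib, against 42.67 and 51.56 CPM on plate A and 71.42 and 113.1 CPM on plate B in DMSO (-1.62 ± 0.38, edgeR adjusted p = 0.00691, and -1.70 ± 0.37, edgeR adjusted p = 0.00247). Both compounds lay below all 4 DMSO wells. VEGFA, the main ligand of the VEGF receptors, was at 652.2 and 565.9 CPM with sorafenib against 1195 and 1058 CPM on plate A and 945.4 and 1044 CPM on plate B in DMSO (-0.80 ± 0.13, edgeR adjusted p = 5.91e-06). The untreated LNCaP wells with that well number differed by -0.77, and the second U87 set by -1.01. The well-number fit put the VEGFA change at -0.05. BNIP3L, a mitophagy receptor, was lower with 8 compounds, by the most with sorafenib (-1.20 ± 0.13), and the second U87 set differed by -1.39 at that number. STC1, the hypoxia-induced hormone stanniocalcin 1, was at 5360 and 3815 CPM with sorafenib, 5529 and 4489 CPM with regorafenib, 6494 and 4273 CPM with cabozantinib and 5800 and 4401 CPM with ponatinib, against 12930 and 12380 CPM on plate A and 8735 and 7943 CPM on plate B in DMSO. The log2 fold changes were -1.18 ± 0.10, -1.04 ± 0.10, -0.93 ± 0.10 and -0.92 ± 0.10, and 3 of the 79 other compounds were lower than each of them. LNCaP cells barely express STC1. At the numbers of sorafenib, regorafenib and ponatinib the second U87 set differed by -0.71, -0.06 and -1.18.

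With pazopanib, genes of the amino acid and ER stress response that the transcription factor ATF4 controls were higher. Of 32 tested genes of that list 7 were higher and 0 lower, against 0.882% higher among all genes, and the list median was 0.449 against -0.0116. In the untreated wells 2 genes of the list were lower, PSAT1 and PHGDH, against 0.529% lower among all genes, and 0 higher, with a median of -0.184. The 7 genes were TRIB3, CHAC1, GDF15, ASNS, PHGDH, STC2 and PSAT1, and PSAT1, ASNS and GDF15 also passed the well-number fit. Sorafenib (0.565% higher among all genes), regorafenib (0.612%) and ponatinib (0.506%) each had 1 higher gene of the list, PSAT1, and nilotinib (0.529%) had PSAT1 and GDF15. DDIT4 was higher with sunitinib (0.6%) and dasatinib (0.765%), CEBPB with imatinib (0.694%) and CHAC1 with bosutinib (0.2%). In the same list, VEGFA was lower with cabozantinib (0.635% lower among all genes) and sorafenib (0.859%). VEGFA, ATF3 and PPP1R15A were lower with regorafenib (1.16%), VEGFA and DDIT4 with nilotinib (0.459%), and DDIT4 with imatinib (0.718%).

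ASNS, which makes asparagine, and CHAC1, which degrades glutathione, hold in their promoters a match to TGATGNAA, letters of the composite element that C/EBP and ATF proteins bind. The 2 promoters are shown for that reason. The sequences are the 250 bases before the start of each gene from RefSeq (GRCh38.p14), 5′ to 3′ on the strand of the gene, with the matches on either strand in capitals. ASNS covers chr7:97872409-97872658 (minus strand) and CHAC1 chr15:40953221-40953470 (plus strand).
ASNS: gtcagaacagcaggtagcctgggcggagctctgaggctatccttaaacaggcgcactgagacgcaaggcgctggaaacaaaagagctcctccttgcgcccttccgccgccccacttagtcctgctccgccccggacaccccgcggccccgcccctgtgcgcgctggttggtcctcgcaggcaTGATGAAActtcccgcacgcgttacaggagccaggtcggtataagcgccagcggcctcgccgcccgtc
CHAC1: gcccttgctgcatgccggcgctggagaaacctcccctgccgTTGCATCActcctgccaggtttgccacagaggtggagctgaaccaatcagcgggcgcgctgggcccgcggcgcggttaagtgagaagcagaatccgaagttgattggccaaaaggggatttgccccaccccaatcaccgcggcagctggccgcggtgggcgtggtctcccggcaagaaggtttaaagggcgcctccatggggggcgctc
The match begins 68 bases before the start of ASNS and 209 bases before that of CHAC1. Of 23 promoters of tested genes on the list, 3 hold the motif (13%): ATF3, ASNS and CHAC1. Among all 35116 promoters of this length 3.14% hold it. A match is a description of the letters, and binding was not measured.

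ASNS was at 176 and 75.79 CPM with pazopanib against 87.59 and 103.1 CPM on plate A and 35.71 and 26.1 CPM on plate B in DMSO (1.02 ± 0.28, edgeR adjusted p = 0.0294), and 6 of the 79 other compounds lay higher. LNCaP wells of this number were lower by 1.10 on the log2 scale than the DMSO numbers, and the change in the well-number fit was 2.04 (limma adjusted p = 0.0321). CHAC1 was at 50.63 and 79.57 CPM with pazopanib against 35.93 and 6.187 CPM on plate A and 18.7 and 15.66 CPM on plate B in DMSO (1.81 ± 0.42, edgeR adjusted p = 0.0048), and the difference at this number was -0.63 in LNCaP and 1.31 in the second U87 set. GDF15, a stress cytokine, was at 94.04 and 128.8 CPM against 35.93 and 47.43 CPM on plate A and 52.71 and 33.06 CPM on plate B (1.38 ± 0.30, edgeR adjusted p = 0.00227), and 12 of the 79 other compounds were higher. TRIB3, a pseudokinase that feeds back on ATF4, was at 53.05 and 22.74 CPM against 6.738 and 12.37 CPM on plate A and 11.9 and 5.22 CPM on plate B (2.10 ± 0.63, edgeR adjusted p = 0.0499).

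PSAT1, the second enzyme of serine synthesis, was at 691.7 and 699.1 CPM on plate A and 207.5 and 172.2 CPM on plate B in DMSO. It was at 1137 and 435.6 CPM with sorafenib, 1023 and 464.9 CPM with regorafenib and 959.6 and 352.4 CPM with pazopanib, above the DMSO wells of the same plate in each case. The log2 fold changes were 0.92 ± 0.14, edgeR adjusted p = 2.19e-06 for sorafenib, 0.87 ± 0.14, edgeR adjusted p = 6.69e-06 for regorafenib and 0.62 ± 0.14, edgeR adjusted p = 0.00544 for pazopanib. Nilotinib (0.54 ± 0.14) and ponatinib (0.51 ± 0.14) also had higher PSAT1. The untreated wells were lower than DMSO, at 368.7, 340.1, 165.2 and 172.6 CPM (-0.55 ± 0.12), and in the second U87 set the differences at the numbers of sorafenib, regorafenib and pazopanib were 0.20, -0.03 and -0.04. The call was lost without the plate A well of sorafenib (0.94) and without the plate B well of regorafenib (0.68).

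PTGES (chr9:132500610-132515321), the enzyme that makes prostaglandin E2, was higher with pazopanib. It was at 330.3 and 445.2 CPM with pazopanib against 31.44 and 84.56 CPM on plate A and 90.12 and 121.8 CPM on plate B in DMSO, and both pazopanib wells lay above all DMSO and untreated wells. The log2 fold change was 2.21 ± 0.22, edgeR adjusted p = 2.10e-13, a 4.63-fold higher level. Over both plates, all 79 other compounds were lower, but PTGES did not pass the test against them (edgeR adjusted p = 0.9997). The second U87 set differed by 0.43 at this well number. PTGES was also higher with ponatinib (1.28 ± 0.22), dasatinib (1.29 ± 0.23), regorafenib (0.96 ± 0.24) and ceritinib (0.84 ± 0.23), although the DMSO wells themselves spread over a range from 31.44 to 121.8 CPM.

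The ID genes, inhibitors of basic helix-loop-helix factors and targets of BMP signaling, were higher with pazopanib. ID1 was at 1225 and 970.1 CPM against 651.3 and 606.3 CPM on plate A and 501.6 and 395 CPM on plate B in DMSO (1.02 ± 0.14, edgeR adjusted p = 2.88e-08), and no other compound was higher (0 of 79). ID1 did not pass the test against the other compounds, where CDC42EP2 was the 1 gene called for pazopanib. ID2 (0.83 ± 0.20) and ID3 (1.26 ± 0.36) rose as well. ID1, ID2, ID3 and MMP2 were the 4 of 27 tested matrix and TGF-beta genes called higher, against 0.882% higher among all genes. Of these 4 genes 0 also passed the well-number fit. Of the replication genes, TK1 (-1.10 ± 0.28) and RRM2 (-0.74 ± 0.20) were lower and E2F1 (0.92 ± 0.25) higher with pazopanib, 3 of 25 tested, against 0.882% higher and 1.26% lower among all genes. For E2F1 the difference at this number was 1.15 in LNCaP and 0.71 in the second U87 set, and the well-number fit gave -0.20. CDC42EP2, an effector of CDC42, was at 0 and 3.789 CPM against 13.48 and 14.44 CPM on plate A and 40.81 and 26.1 CPM on plate B in DMSO (-3.48 ± 0.90, edgeR adjusted p = 0.0114), and the call was lost without either well. TUBB6, a tubulin, was lower (-0.84 ± 0.14). SHISA5, at 28.93 and 117.5 CPM against 78.61 and 113.4 CPM on plate A and 170 and 207 CPM on plate B in DMSO, was lower as well. SHISA5 passed the well-number fit too (limma adjusted p = 0.0321). RNF146 and SERPINA9, called lower against DMSO, are near 0 with pazopanib and get no fold here.

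**Figure D3:**
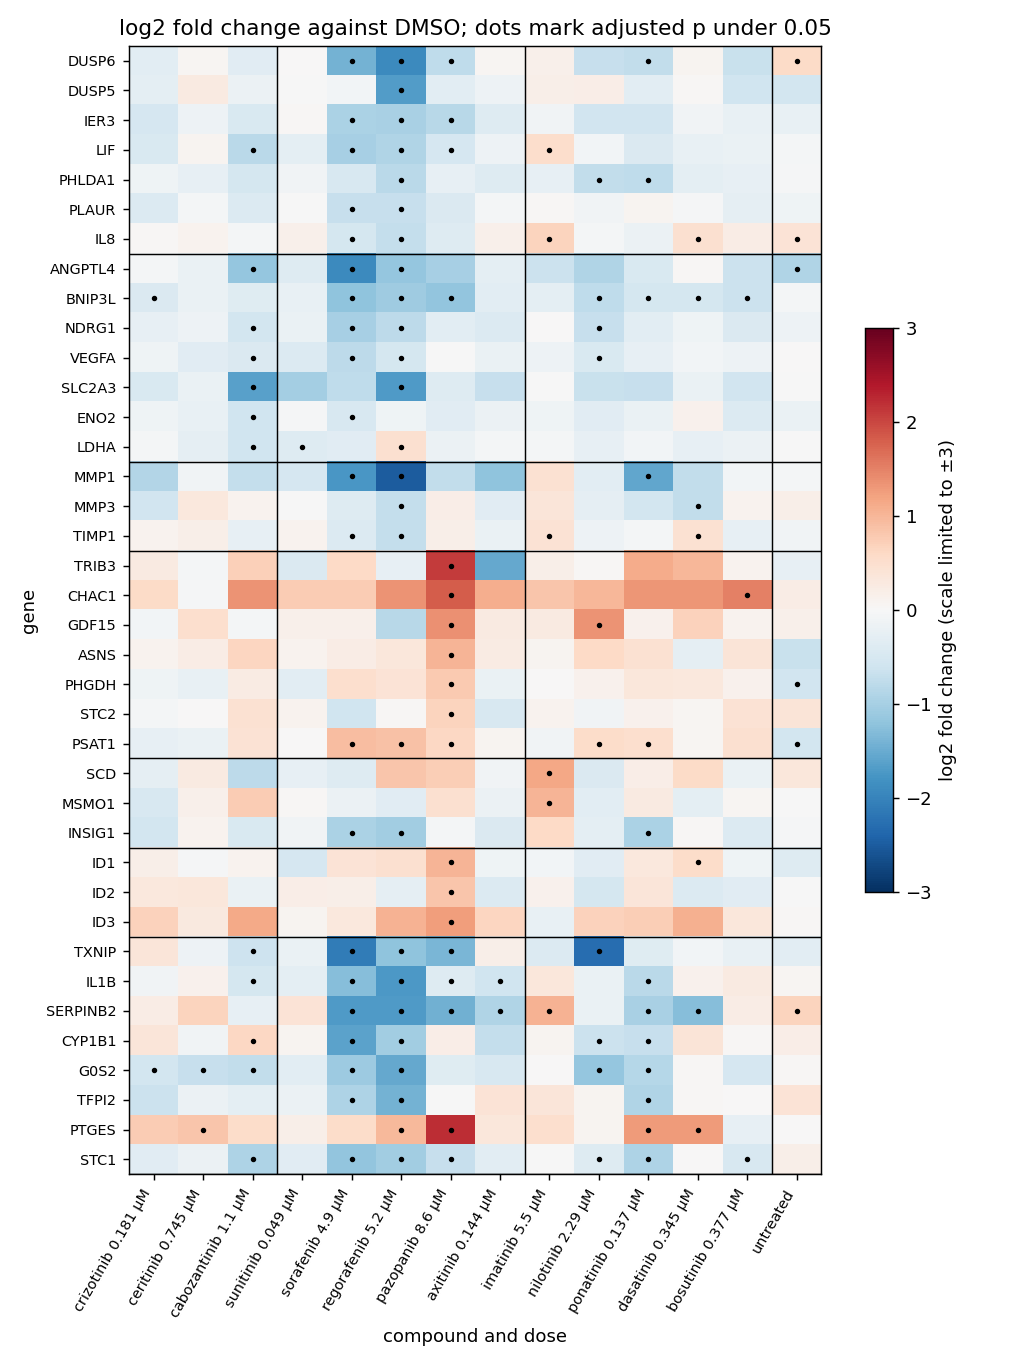
Log2 fold change against DMSO (color, limited to ±3) of 38 genes in the 13 compounds and the untreated wells, grouped by gene list. The genes were chosen after their values had been seen, and dots mark an adjusted p under 0.05 (edgeR). Sorafenib and regorafenib have the darkest blue in the ERK rows, the 7 ATF4 genes shown are those called higher with pazopanib, and imatinib has SCD and MSMO1 called higher.

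Sunitinib and axitinib were dosed at 0.049 µM and 0.144 µM, below the other VEGF receptor inhibitors. Their leading genes also differed at the same well number in cells that saw neither drug. KIAA1143 was at 31.63 and 45.2 CPM with sunitinib against 188.7 and 175.3 CPM on plate A and 175.1 and 156.6 CPM on plate B in DMSO (-2.09 ± 0.23, edgeR adjusted p = 1.37e-10). In LNCaP the difference at that number was -1.85 and in the second U87 set -2.36. WNT5A, a non-canonical WNT ligand, was at 56.94 and 117.9 CPM against 125.8 and 204.2 CPM on plate A and 392.8 and 299.3 CPM on plate B (-1.49 ± 0.21, edgeR adjusted p = 4.51e-07). It was lower by 2.43 on the log2 scale at that number in the second U87 set, and LNCaP cells barely express it. With axitinib, CCNK, the cyclin partner of CDK12, was at 80.49 and 144.2 CPM against 15.72 and 12.37 CPM on plate A and 10.2 and 15.66 CPM on plate B (3.07 ± 0.43, edgeR adjusted p = 3.17e-07). The difference at that number was 0.83 in LNCaP, where the gene averages under 20 CPM, and 1.68 in the second U87 set. The mitosis genes NUSAP1 (0.85 ± 0.16) and TOP2A (0.61 ± 0.15) were higher with sunitinib, 2 of 31 tested against 0.6% higher among all genes.

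Cabozantinib was the MET and ALK inhibitor with the most calls and the only one of the 3 with several genes past both the DMSO test and the test against the 79 other compounds. FTH1, the heavy chain of ferritin, was at 3909 and 6494 CPM against 923.1 and 1114 CPM on plate A and 1984 and 2144 CPM on plate B in DMSO (1.84 ± 0.11, edgeR adjusted p = 1.86e-28). It passed the test against the other compounds (edgeR adjusted p = 0.0391), yet LNCaP and the second U87 set differed by 1.61 and 1.32 at the same number. FTH1 has processed copies elsewhere in the genome, so its count of uniquely mapped reads is uncertain. The kinesin gene KIF3B (1.18 ± 0.23) and the lysosome-kinesin adaptor PLEKHM2 (1.26 ± 0.34) were higher, and LNCaP differed by 1.17 and 1.51. PHF21A, a subunit of a histone demethylase complex, was at 60.59 and 84.87 CPM against 6.738 and 22.69 CPM on plate A and 5.101 and 17.4 CPM on plate B (2.50 ± 0.50, edgeR adjusted p = 6.10e-04), with differences of 0.98 in LNCaP and 0.59 in the second set. Its call was lost without the plate B well (2.21). CHI3L1, a secreted glycoprotein of mesenchymal glioma, was higher with cabozantinib (1.24 ± 0.27), pazopanib (1.01 ± 0.27) and imatinib (1.01 ± 0.26), and also in the untreated wells (0.90 ± 0.22).

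With crizotinib, the mitochondrial glutaredoxin gene GLRX2 was at 46.38 and 47.54 CPM against 141.5 and 222.7 CPM on plate A and 115.6 and 118.3 CPM on plate B in DMSO (-1.57 ± 0.25, edgeR adjusted p = 9.14e-06), below all 79 other compounds. LNCaP wells of the same number, which saw no drug, were lower by 1.58 on the log2 scale and the second U87 set by 1.45. The well-number fit left 0.06, and the call against DMSO was lost without the plate A well (-1.33). Of the respiratory chain genes, NDUFB2 was lower (-1.10 ± 0.14) and NDUFA4 higher (0.95 ± 0.14), and LNCaP differed by -1.72 and 0.83 at that number. ANXA2, a membrane-binding annexin, was lower (-0.86 ± 0.12), and the second U87 set differed by -1.04 at that number. With ceritinib, the actin gene ACTG1 (-0.59 ± 0.11) and the LIM protein gene FHL2 (-0.95 ± 0.21) were lower, 2 of 18 tested SRF and actin genes against 0.388% lower among all genes, and at that number the second U87 set differed by -0.74 and -0.87.

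MET itself was expressed at 15.72 and 47.43 CPM on plate A and 47.61 and 76.55 CPM on plate B in DMSO. It was at 35.68 and 39.62 CPM with crizotinib, 34.58 and 76.29 CPM with ceritinib and 24.68 and 70.01 CPM with cabozantinib. All of these lay within the range of the 4 DMSO wells over both plates. Within a plate the same held, except that crizotinib on plate B lay below both DMSO wells of that plate. Of the 41 kinase genes on the target list 18 passed the filter on low counts. ALK, the VEGF receptor genes KDR, FLT1 and FLT4, PDGFRA, KIT and RET did not pass it. Against DMSO 0 of the 18 were called in 12 of the 13 compounds, and the list medians lay between -0.372 and 0.0589. EGFR was higher with regorafenib, at 312.7 and 313 CPM against 202.1 and 109.3 CPM on plate A and 219.4 and 182.7 CPM on plate B (0.83 ± 0.19, edgeR adjusted p = 0.0045). The LNCaP wells of that number were higher by 2.51, at a mean level under 20 CPM, and the well-number fit gave -1.46 (limma adjusted p = 0.57). EPHA2, an ephrin receptor, was lower in the mean of the MET and ALK inhibitors (-1.50 ± 0.40) and in the untreated wells (-1.61 ± 0.44). AXL, a receptor that cabozantinib also blocks, was at 199.9 and 177.4 CPM on plate A and 287.4 and 240.1 CPM on plate B in DMSO and at 157.1 and 227 CPM with cabozantinib.

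TXNIP was lowest with nilotinib among the 13 inhibitors and the 79 other compounds, although the difference from sorafenib was not tested. TXNIP was at 71.82 and 133 CPM with nilotinib, a log2 fold change of -2.28 ± 0.18, edgeR adjusted p = 5.60e-20, or 4.87-fold lower. The well-number fit gave -1.96 (limma adjusted p = 0.00157). The difference at this number was -0.30 in LNCaP and -0.06 in the second U87 set. The change did not pass the test against the 79 other compounds (edgeR adjusted p = 0.236). Imatinib, at 240.8 and 493.6 CPM, was not called (-0.40 ± 0.15). The doses of the pair differ, at 2.29 µM and 5.5 µM, and they were not compared. AAGAB, a trafficking adaptor chaperone, was at 101.9 and 26.87 CPM against 853.5 and 1033 CPM on plate A and 161.5 and 137.5 CPM on plate B in DMSO (-2.91 ± 0.21, edgeR adjusted p = 1.37e-21). At that number AAGAB was lower by 1.81 in LNCaP and 1.75 in the second U87 set on the log2 scale. GDF15 was higher with nilotinib, at 120.3 and 83.45 CPM (1.36 ± 0.29), a call that was lost without either well. The difference at that number was 0.49 in LNCaP and 1.90 in the second U87 set.

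With imatinib, 2 of 22 tested genes of cholesterol and fatty acid synthesis were higher and 0 lower, against 0.694% higher among all genes, and the list median was 0.344 against -0.0197. SCD, stearoyl-CoA desaturase, was at 125.3 and 195.8 CPM against 47.16 and 105.2 CPM on plate A and 83.32 and 76.55 CPM on plate B in DMSO (1.16 ± 0.24, edgeR adjusted p = 0.00164). MSMO1, a sterol demethylase, was at 138 and 227.5 CPM against 114.5 and 61.87 CPM on plate A and 124.1 and 93.95 CPM on plate B (1.02 ± 0.22, edgeR adjusted p = 0.0032). Both imatinib wells lay above all DMSO wells for both genes, but neither was called without either of them. The second U87 set differed at this number by -1.59 and -0.44, and LNCaP differed by -0.37 and -0.01. In the well-number fit the changes were 1.50 and 0.99 and did not pass the test (limma adjusted p = 0.577 and 0.999). In the other 12 compounds 0 genes of this list were higher, and INSIG1, which holds the sterol sensor in the ER, was lower with sorafenib (-0.95 ± 0.23), regorafenib (-1.03 ± 0.23) and ponatinib (-0.95 ± 0.21). Among all genes 0.859%, 1.16% and 0.553% were lower with these compounds. Imatinib also had lower COL1A1, a fibrillar collagen (-0.77 ± 0.13), and the second U87 set differed by -0.72 at that number.

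With ponatinib, CCL2 and IGFBP7 were higher and GFPT2 was lower. CCL2, a monocyte chemokine, was at 513.4 and 297.9 CPM against 195.4 and 325.9 CPM on plate A and 161.5 and 187.9 CPM on plate B in DMSO (0.98 ± 0.17, edgeR adjusted p = 5.37e-05), and it was lower in the untreated wells (-0.69 ± 0.16). IGFBP7 was at 420.9 and 630.3 CPM against 242.6 and 247.5 CPM on plate A and 406.4 and 367.1 CPM on plate B (0.85 ± 0.14, edgeR adjusted p = 5.30e-05). GFPT2, an enzyme of the hexosamine pathway, was at 353.3 and 457.3 CPM against 835.5 and 1204 CPM on plate A and 899.5 and 1166 CPM on plate B (-1.23 ± 0.14, edgeR adjusted p = 3.49e-10). At this number the second U87 set differed by 0.75, 0.60 and -1.31 for these genes. CCL2 and IGFBP7 were not called without either ponatinib well. The mitosis genes CCNB1, CCNB2 and PTTG1 were higher (0.65 ± 0.16, 0.90 ± 0.23 and 0.47 ± 0.12), 3 of 31 tested against 0.506% higher among all genes.

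With dasatinib, DDIT4, a stress-induced inhibitor of mTORC1, was at 730.5 and 1069 CPM against 226.8 and 352.7 CPM on plate A and 556 and 525.4 CPM on plate B in DMSO (1.26 ± 0.17, edgeR adjusted p = 1.62e-06), and LNCaP differed by 0.66 at that number. Of 27 tested matrix and TGF-beta genes 4 were higher (LOX, ID1, COL6A1 and TIMP1) and 1 lower (MMP3), against 0.765% higher and 0.612% lower among all genes. The untreated wells had 4 higher and 0 lower of the same list, LOX among them, against 0.823% higher and 0.529% lower among all genes. The NRF2 target TXN, thioredoxin, was lower (-0.46 ± 0.11), while PIR (1.20 ± 0.28) was higher. RPL17 was at 0 and 3.681 CPM against 17.97 and 24.75 CPM on plate A and 28.91 and 24.36 CPM on plate B in DMSO, and LNCaP and the second U87 set differed by -1.90 and -2.81. With bosutinib, CHAC1 was at 62.17 and 48.52 CPM (1.52 ± 0.40, edgeR adjusted p = 0.0467), and 11 of the 79 other compounds were higher.

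Averaged over the 5 VEGF receptor inhibitors, 123 genes differed from DMSO (1.45%, 36 higher and 87 lower), over the 3 MET and ALK inhibitors 110 (1.29%, 52 and 58) and over the 5 ABL inhibitors 145 (1.71%, 47 and 98). A class mean is a mean over compounds at unequal doses, which are not replicates. IL1B was lower in the VEGFR mean (-0.86 ± 0.07, edgeR adjusted p = 2.70e-17), and it passed the test against the 79 other compounds (edgeR adjusted p = 0.0247). MMP1 (-1.34 ± 0.21) and SCG5, a chaperone of hormone processing (-0.72 ± 0.13), passed against both DMSO and the other compounds. SERPINA9 did as well (-1.84 ± 0.43), but 1 DMSO well stood at 51.56 CPM and the other 3 between 8.984 and 15.66 CPM, and without that well the change was -1.44 with an edgeR adjusted p of 0.20.

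Set against the spread of the 79 other compounds, few genes of any inhibitor stood out. On counts summed over the 2 wells of a compound, edgeR called 4 of 7412 genes for cabozantinib (0.054%), 2 for sorafenib (0.027%) and 1 each (0.0135%) for crizotinib, sunitinib, regorafenib, pazopanib, axitinib, nilotinib and dasatinib. It called 0 for ceritinib, imatinib, ponatinib and bosutinib, with 117, 118, 112 and 83 genes at an unadjusted p under 0.05, and DESeq2 called 2, 0, 0 and 0. The class means gave 6 for VEGFR (0.0809%), 1 for ABL (0.0135%) and 0 for MET/ALK, which had 275 genes at an unadjusted p under 0.05. Treated the same way, the untreated well numbers gave 0 for well 52 and 3 for well 53 (0.0405%), with 171 and 313 genes at an unadjusted p under 0.05. The DMSO numbers gave 0 and 0, with 184 and 214 such genes. CKS2, a subunit of cyclin-dependent kinases, was the gene of regorafenib, at 592.2 and 356.2 CPM against 195.4 and 162.9 CPM on plate A and 115.6 and 90.47 CPM on plate B in DMSO, and LNCaP differed by 1.75 against a change of 1.75. C8orf33 was higher with sorafenib (1.61, LNCaP 1.67) and MTHFD1, a folate enzyme, with sunitinib (1.28, LNCaP 1.00).

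Of the 12 gene and compound pairs that passed both tests, 8 are in genes that average at least 20 CPM in LNCaP. In 6 of these 8 the untreated LNCaP wells of the same number differed by over 0.7 of the U87 change, in the same direction. CDC42EP2 with pazopanib was the pair for which both other sets went the other way, 0.87 in LNCaP, where the gene is near 0, and 0.28 in the second U87 set. Over all 57 pairs named by size or by p, 44 could be read in LNCaP and 41 of these had the sign of the U87 change. In the second U87 set 54 of 57 had that sign.

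**Figure D4:**
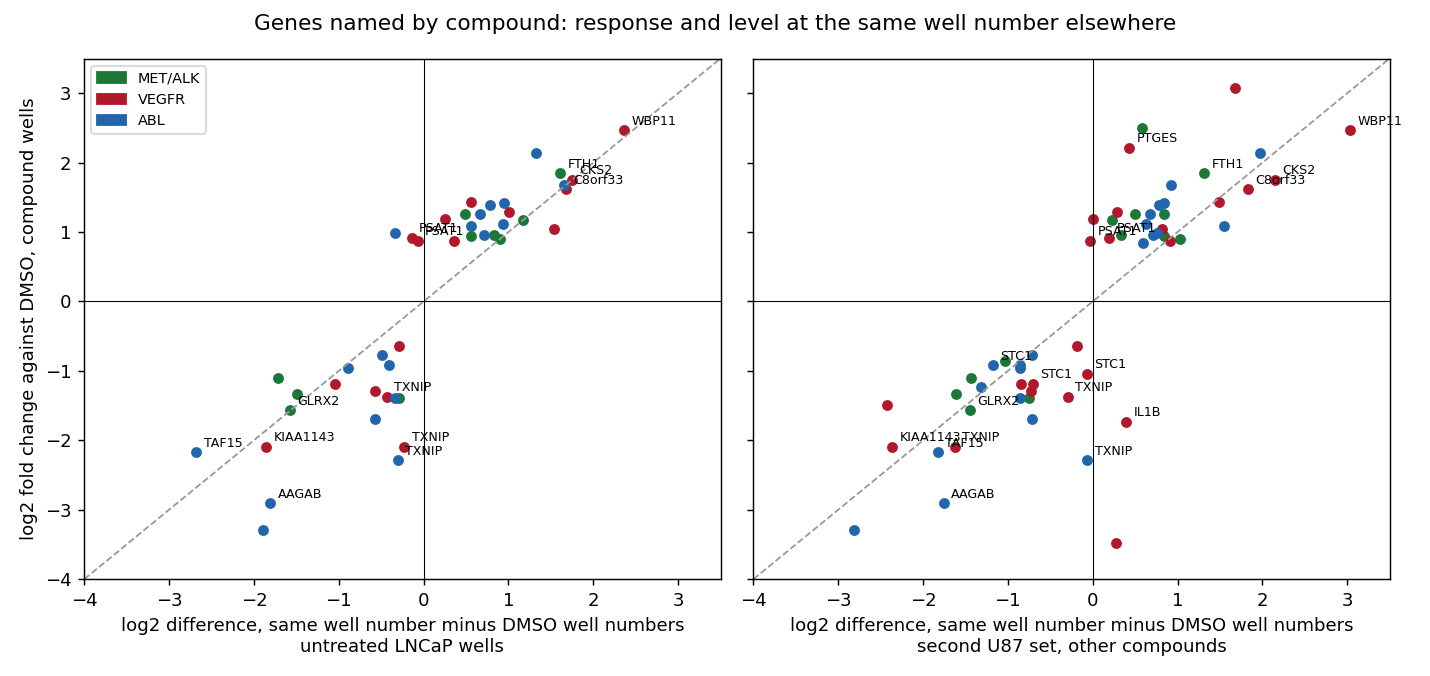
Log2 fold change against DMSO of the 57 named gene and compound pairs (vertical axis) against the log2 difference between the same well number and the DMSO well numbers in untreated LNCaP cells (left, 44 pairs) and in the second U87 set with other compounds (right, 57 pairs). Colors mark the inhibitor class, and points on the dashed line differ by the same amount on both axes. CKS2, GLRX2 and C8orf33 lie near the line in LNCaP, while TXNIP with sorafenib and nilotinib lies far below it.

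In the 13 compounds 1 of the 24 lysosome genes was called, CTSB, lower with regorafenib (-0.62 ± 0.15), against 1.16% lower among all genes. Of the 16 ER chaperones 1 was called, HSP90B1, higher with pazopanib (0.53 ± 0.12), against 0.882% higher among all genes. Of 17 p53 targets GDF15 alone was called, higher with pazopanib (0.882% higher among all genes) and nilotinib (0.529%). Of 13 YAP targets the tissue factor gene F3 was called, lower with pazopanib (-1.09 ± 0.23), against 1.26% lower among all genes. LNCaP cells barely express F3, and the second U87 set differed by -2.28 at that number, under another compound. Of 14 receptor ligands EREG, VEGFA and the ephrin EFNB2 were the genes called, all lower, the last with ceritinib (-1.35 ± 0.36) and dasatinib (-1.58 ± 0.41). With the compounds in which any of these was called, 0.388% to 1.26% of all genes were lower. TPM1, a tropomyosin of the SRF list, was higher with regorafenib (0.63 ± 0.13), nilotinib (0.61 ± 0.13) and ponatinib (0.71 ± 0.12), and in the untreated wells (0.40 ± 0.11). At the numbers of these 3 compounds TPM1 differed by 0.58, 0.47 and 0.65 in LNCaP, and the well-number fit gave 0.04, 0.14 and 0.09. Of 15 NRF2 targets FTH1 was higher with cabozantinib, sunitinib, sorafenib, imatinib, ponatinib and dasatinib, and PIR also with pazopanib. Among all genes 0.506% to 0.882% were higher with these compounds. Dasatinib had 3 of the 15 called, FTH1 and PIR higher (0.765% of all genes) and TXN lower (0.612%). Of 5 aryl hydrocarbon receptor targets CYP1B1 was the gene called. It was lower with sorafenib, regorafenib, nilotinib and ponatinib, against 0.459% to 1.16% lower among all genes. With cabozantinib it was higher, against 0.753% higher among all genes. Of 10 tested glioma markers dasatinib had 1 higher and 3 lower, against 0.765% and 0.612% of all genes, and imatinib had 3 higher (CHI3L1, LGALS1 and TIMP1), against 0.694%. In the untreated wells CHI3L1 was higher, against 0.823% higher among all genes. VIM, S100A6 and ANXA1 were lower with dasatinib (-0.39 ± 0.11, -0.45 ± 0.11 and -0.60 ± 0.15), while TIMP1 was higher with dasatinib (0.45 ± 0.10) and imatinib (0.43 ± 0.10) and lower with sorafenib (-0.42 ± 0.10) and regorafenib (-0.72 ± 0.10). ANXA1 was lower with regorafenib as well. Of the 2 tested epithelial and prostate markers 0 were called.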

How the data were processed

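Poly(A) RNA of U87 wells was profiled by PLATE-Seq. The authors aligned reads with BWA to UCSC known genes of hg19 and counted uniquely mapped sense-strand reads per gene symbol, with no molecular identifiers, and the deposited values are raw counts. The version of BWA is not given in the sources used here. Rows of 92 spike-ins (0.0141% of counts) were left out.

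Here, counts of 34 wells (13 compounds with 2 wells each, 4 DMSO and 4 untreated) were fitted with edgeR 4.0.16 (R 4.3.3): TMM scaling, filterByExpr, robust quasi-likelihood test, plate as a term, and Benjamini-Hochberg adjustment over 8501 genes with calls at an adjusted p under 0.05. A compound was also set against the 79 other compounds of the plates on counts summed over its wells (7412 genes). DESeq2 1.42.0 and limma 3.58.1 served as alternatives. In one alternative the well number was a term fitted together with untreated LNCaP wells of the same numbers, and a second U87 set with other compounds gave the level at the same number. CPM is the count scaled to the library total, and well ratios in the plot use a pseudocount of 0.5.

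The plate letter in the labels marks the duplicate and pairs the wells of a compound, which had a correlation of 0.197 to 0.314 across genes after centring each plate. Over all 96 wells the median between plates A and B was 0.249. The same well number gave 0.273 with the second U87 set, under other compounds, and 0.23 between plate A and untreated LNCaP. The duplicates thus correlated no more than wells that share a number alone. Named genes were those called against both DMSO and the other compounds at 20 CPM or more, up to 4 rises and 4 falls a compound (5 and 5 for a class mean), filled up where under 2 qualified by the 2 genes with the smallest p against DMSO in each direction, together with the kinase targets at 5 CPM or more in DMSO and up to 4 genes of each of 19 lists. Some genes are not reported here and were left out of these lists. Other genes printed here were chosen after their values were seen. The members, lists and rules were chosen with earlier results of these data known. Simulated counts held no well-number effect, and their 200 changed genes were drawn from those with higher counts. On these the DMSO test recovered 85% of 2-fold and 99% of 4-fold changes (8214 genes tested). The test against the other compounds recovered 95% and 99% (7507 genes tested). Recovery at low counts or under a well-number effect was not tested. Promoter sequences are from RefSeq and gene positions from a GRCh37 annotation. Intervals and p-values cover the spread between wells only.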

Additional observations from a re-analysis of the deposited data

Results flagged for a closer look

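In 100 groups of 4 control wells (the DMSO and the untreated wells, for the library totals and the leading genes of each compound), 1 well stood far from the other 3 in 5 groups. Chance gives about 1 in 20 for 4 like wells. Each group here spans plates A and B and different well numbers, so that rate need not hold. EFCAB4A was at 57.75 CPM in 1 DMSO well and at 85.35 to 90.47 CPM in the others. IMPAD1 was at 177.4 CPM in 1 DMSO well and at 277.2 to 292.3 CPM in the others. RHOB was at 167.1 CPM in 1 DMSO well and at 45.91 to 60.9 CPM in the others. SERPINA9 was at 51.56 CPM in 1 DMSO well and at 8.984 to 15.66 CPM in the others. RNF145 was at 695.2 CPM in 1 untreated well and at 425.8 to 458.7 CPM in the others.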

How the results depend on the processing

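Another scaling (RLE) left the counts against DMSO and against the other compounds within 1.5 times their value, as did limma-trend for the counts against DMSO, the comparison it was run for. The counts depended most on the plate term, on having both wells of a compound, and on the well number. Subtracting the LNCaP profile puts its error into both wells of a compound and not into the spread between them, so its counts are too large by construction, while the fit with a term carries that error. With DESeq2, 127 of 140 log2 fold changes of named genes kept direction and side of the threshold, with RLE 138, without the plate term 51 and with the well-number term 45, where 78 were no longer called. With 1 well a compound, the lone well is assumed to vary like the other groups. At 399737 to 1128215 counts a well, depth limits what can be read for genes of low level.

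With the replicate block, that is the plate, left out of the fit, the genes called against DMSO were 1 for crizotinib, ceritinib, axitinib, nilotinib, dasatinib and ABL mean, 0 for cabozantinib, imatinib, ponatinib, bosutinib and MET/ALK mean, 2 for sunitinib and pazopanib, 6 for sorafenib and regorafenib and 10 for VEGFR mean. With the LNCaP profile of the well number subtracted before limma, the genes called against DMSO were 445 for crizotinib, 325 for ceritinib and pazopanib, 347 for cabozantinib, 385 for sorafenib, 384 for regorafenib, 181 for axitinib, 211 for nilotinib, 1201 for ponatinib, 423 for dasatinib, 85 for bosutinib, 494 for MET/ALK mean, 579 for VEGFR mean and 499 for ABL mean. With the well number as a term in limma, chosen after seeing the data, the genes called against DMSO were 2 for crizotinib, axitinib and ABL mean, 0 for ceritinib, cabozantinib, imatinib, ponatinib, dasatinib and bosutinib, 1 for sunitinib, nilotinib, MET/ALK mean and VEGFR mean, 8 for sorafenib, 5 for regorafenib and 13 for pazopanib. On plate A alone, the genes called against DMSO were 2 for crizotinib, cabozantinib, sunitinib and imatinib, 1 for ceritinib, pazopanib, ponatinib, dasatinib and MET/ALK mean, 5 for sorafenib, 6 for regorafenib and nilotinib, 0 for axitinib and bosutinib, 9 for VEGFR mean and 3 for ABL mean. On plate B alone, the genes called against DMSO were 1 for crizotinib, MET/ALK mean and ABL mean, 2 for ceritinib, cabozantinib, axitinib and dasatinib, 7 for sunitinib and pazopanib, 11 for sorafenib, 15 for regorafenib, 0 for imatinib, ponatinib and bosutinib, 3 for nilotinib and 12 for VEGFR mean. With the wells kept apart and the replicate block in the fit, the genes called against the other compounds were 6 for crizotinib, 3 for ceritinib, 10 for cabozantinib and regorafenib, 5 for sunitinib, 7 for sorafenib, 2 for pazopanib, ponatinib, bosutinib and ABL mean, 8 for nilotinib and dasatinib, 4 for MET/ALK mean and 32 for VEGFR mean. With no filter on low counts, the genes called against the other compounds were 4 for crizotinib, 9 for cabozantinib, 10 for sunitinib, sorafenib and dasatinib, 8 for regorafenib, 13 for pazopanib, 6 for axitinib and ponatinib, 2 for imatinib, 3 for nilotinib, 7 for bosutinib, 1 for VEGFR mean and 0 for ABL mean. With DESeq2, the genes called against DMSO were 58 for bosutinib. With DESeq2, the genes called against the other compounds were 3 for crizotinib, 2 for ceritinib and nilotinib, 1 for cabozantinib, 0 for pazopanib and 11 for VEGFR mean. With the DMSO and untreated wells together as the reference, the genes called against DMSO were 76 for imatinib, 250 for VEGFR mean and 258 for ABL mean. With a filter at a mean of 10 counts, the genes called against the other compounds were 7 for cabozantinib and 3 for pazopanib. Leaving out 1 well at a time, the genes called against DMSO ranged over 5 to 92 for crizotinib, 2 to 76 for ceritinib, 12 to 106 for cabozantinib, 5 to 94 for sunitinib, 16 to 111 for sorafenib, 30 to 149 for regorafenib, 14 to 160 for pazopanib, 3 to 33 for axitinib, 4 to 107 for imatinib, 2 to 85 for nilotinib, 6 to 109 for ponatinib, 11 to 98 for dasatinib, 0 to 37 for bosutinib, 9 to 87 for MET/ALK mean, 21 to 107 for VEGFR mean and 14 to 127 for ABL mean. Leaving out 1 well at a time, the genes called against the other compounds ranged over 0 to 2 for crizotinib and VEGFR mean, 0 to 1 for ceritinib, sunitinib, regorafenib, ponatinib and ABL mean, 1 to 2 for cabozantinib, 1 to 1 for sorafenib, 0 to 0 for pazopanib and axitinib and 0 to 3 for dasatinib. With the well number taken from LNCaP, 17 named genes changed sign, with log2 fold changes by subtraction and by the term of GLRX2 with crizotinib (0.106 and 0.0627), NDUFB2 with crizotinib (0.562 and 0.528), USO1 with ceritinib (-0.00584 and -0.00302), RPL23A with ceritinib (0.259 and 0.254), PLEKHM2 with cabozantinib (-0.345 and -0.325), KIF3B with cabozantinib (-0.0138 and -0.036), IMPAD1 with sunitinib (-0.474 and -0.497), C8orf33 with sorafenib (-0.139 and -0.136), CKS2 with regorafenib (-0.0284 and -0.0273), TAF15 with bosutinib (0.686 and 0.646), FGFR1 with ponatinib (0.302 and 0.195), EGFR with regorafenib (-1.68 and -1.46), CCND1 with sunitinib (-0.0272), LIMA1 with sunitinib (-0.862 and -0.848), E2F1 with pazopanib (-0.174 and -0.201), GADD45A with crizotinib (0.0708 and 0.0117) and CD68 with pazopanib (-0.561 and -0.49), where CCND1 changed sign by the term alone.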
